A study of Rattus norvegicus with 20 samples.

Results

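Early life stress by maternal separation (MatSep) was followed into adulthood in the renal vessels of male Wistar Kyoto rats, by comparing 5 MatSep rats with 5 control rats at postnatal day 180 (P180). These 10 arrays, 1 per rat, were all those labelled P180 among 20 in the series, and 18511 of 36685 transcripts, those with 1 gene symbol in the platform annotation, were compared. MatSep pups had been taken daily from the dam during the first weeks of life and returned, and were otherwise raised normally. Control pups were left unhandled with their dam. The methods call the control litters non-handled and also call the controls littermates, each group drew on several litters, and the labels give no litter for a rat, so p-values measure the spread between rats that may not be independent. The kidney was grated over a sieve to free its vessels, RNA was hybridized to RaGene2.0_st arrays, and values are log2 of the deposited normalized intensity, with the number of arrays as the limit on precision. The sample numbers of the labels form 2 runs, 1 to 6 (3 control, then 3 MatSep rats) and 8 to 11 (2 control, then 2 MatSep rats). What a run stands for is not given in the sources used here, and neither is the time of day at which kidneys were taken.

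In nearly every cell, a circadian clock is built from a loop of transcription. BMAL1 with CLOCK or NPAS2 switches on the PER and CRY genes, whose proteins then shut the activators off, and a second loop of REV-ERB and ROR receptors times Bmal1 itself. The factors DBP, TEF and HLF carry the rhythm to output genes and NFIL3 opposes them, so that these transcripts rise and fall over the day in kidney and vessel wall.

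Of the 6 transcripts that passed the test below, 4 were members of this clock. The 250 bases before the start of 7 clock genes are shown because the elements through which the loop acts lie in such promoters. These were the 4 that passed and the 3 clock genes with the next smallest p, and the sequences are from RefSeq, build GRCr8, each read 5′ to 3′ on the strand of the gene. Capitals mark matches, on either strand, to the E-box CACGTG, its variant CACGTT, the D-box TTATGTAA or TTACGTAA, and the ROR element TAGGTCA or TGGGTCA.
Dbp (chr1:105312006-105312255, plus strand): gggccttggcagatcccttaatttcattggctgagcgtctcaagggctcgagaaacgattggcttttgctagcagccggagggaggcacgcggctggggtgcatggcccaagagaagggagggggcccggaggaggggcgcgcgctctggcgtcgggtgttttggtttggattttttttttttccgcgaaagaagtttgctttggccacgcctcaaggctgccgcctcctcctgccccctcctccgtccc
Tef (chr7:115206577-115206826, plus strand): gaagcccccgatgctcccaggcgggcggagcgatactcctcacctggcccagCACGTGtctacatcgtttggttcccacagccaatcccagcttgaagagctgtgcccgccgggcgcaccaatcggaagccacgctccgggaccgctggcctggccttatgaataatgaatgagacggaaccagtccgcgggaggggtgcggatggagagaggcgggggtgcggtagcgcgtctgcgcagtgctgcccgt
Ciart (chr2:186112247-186112496, minus strand): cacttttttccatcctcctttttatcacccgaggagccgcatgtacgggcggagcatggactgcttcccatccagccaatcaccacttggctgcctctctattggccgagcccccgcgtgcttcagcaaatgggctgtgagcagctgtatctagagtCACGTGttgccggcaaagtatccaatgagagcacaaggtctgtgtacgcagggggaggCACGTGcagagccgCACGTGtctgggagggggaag
Usp2 (chr8:53310620-53310869, plus strand): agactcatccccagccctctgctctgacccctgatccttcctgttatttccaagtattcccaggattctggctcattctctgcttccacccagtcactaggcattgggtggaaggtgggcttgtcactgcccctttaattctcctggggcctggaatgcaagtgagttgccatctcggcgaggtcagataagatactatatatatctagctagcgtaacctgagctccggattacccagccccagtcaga
Per2 (chr9:99496994-99497243, minus strand): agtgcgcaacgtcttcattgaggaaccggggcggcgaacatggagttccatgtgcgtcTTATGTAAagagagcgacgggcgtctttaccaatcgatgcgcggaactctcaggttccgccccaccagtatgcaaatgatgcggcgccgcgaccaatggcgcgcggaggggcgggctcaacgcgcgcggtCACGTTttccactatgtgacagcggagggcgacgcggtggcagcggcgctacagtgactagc
Bmal1 (chr1:176766078-176766327, plus strand): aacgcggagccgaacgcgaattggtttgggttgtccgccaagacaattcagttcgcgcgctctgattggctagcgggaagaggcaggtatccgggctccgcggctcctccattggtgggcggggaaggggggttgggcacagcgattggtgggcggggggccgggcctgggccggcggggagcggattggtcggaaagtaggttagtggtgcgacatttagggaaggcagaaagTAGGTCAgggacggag
Npas2 (chr9:48959315-48959564, plus strand): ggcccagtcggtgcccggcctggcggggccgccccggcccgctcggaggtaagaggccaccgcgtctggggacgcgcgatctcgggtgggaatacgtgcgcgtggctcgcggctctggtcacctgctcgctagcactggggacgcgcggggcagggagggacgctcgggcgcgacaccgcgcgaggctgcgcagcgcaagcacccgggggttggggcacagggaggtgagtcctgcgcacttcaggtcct

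Ciart held 3 E-boxes, Tef held 1, Per2 held a D-box and the variant CACGTT, and Bmal1 held a ROR element 16 bases before the start. No match lay in the windows of Dbp, Usp2 and Npas2. Of 33469 promoters of the same length, 5.59% held the E-box, 4.07% its variant, 0.932% a D-box and 5.62% a ROR element. Of 26 promoters of 24 measured clock genes, 23.1%, 11.5%, 3.85% and 3.85% held them. A match describes the letters and is not a measured site.

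The 10 arrays were alike in scale, with median log2 intensities of 6.05 to 6.14 in MatSep and 6.02 to 6.14 in control rats. The first principal component held 22% of the variance and the groups overlapped on it, with MatSep replicate 3 at one end (-20.8, the other arrays -11.9 to 13.7). The second component held 20.2% and separated the runs, with samples 1 to 6 at -2.12 to 16.9 and samples 8 to 11 at -18.4 to -5.07, control replicate 4 at the end. MatSep replicate 3 also had the highest mean level of 11 measured smooth muscle markers, 10.92 against 9.95 to 10.51 in the other arrays. Transcripts of vessel and of tubule were both abundant, so the preparation was not free of tubule: Myh11, the smooth muscle myosin, averaged 12.05 in MatSep and 12.11 in control rats, and Umod, a protein of the loop of Henle, averaged 13.24 in MatSep and 13.29 in control rats.

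Few transcripts separated MatSep from control vessels. At an adjusted p under 0.05 in limma (Benjamini-Hochberg over 18511 transcripts), 3 were higher (0.0162%) and 3 lower (0.0162%), 0.0324% of those tested. The higher ones were the clock genes Ciart, Dbp and Tef, and the lower ones were Bmal1, also of the clock, Nav3 and RT1-CE13. At an unadjusted p under 0.05, 491 were higher (2.65%) and 575 lower (3.11%), 5.76% in all. The median difference over all transcripts was -0.00 on the log2 scale, 771 transcripts differed by over 1.2-fold and 2 by over 2-fold, and in 150 (0.81%) the groups did not overlap, MatSep being higher in 63 (0.34%) and lower in 87 (0.47%). The mean was higher in MatSep rats for 49.3% of the transcripts. No transcript passed in limma without control replicate 2, without control replicate 3, without MatSep replicate 1 or without MatSep replicate 4 of P10 (whose spread the fit shares), where 414 to 471 were higher and 478 to 558 lower at an unadjusted p under 0.05. None passed either with only the 10 P180 arrays (411 higher and 525 lower at an unadjusted p under 0.05). The fit pools the spread of both ages, so SEs and p-values at P180 rest partly on the P10 arrays. SDs of Ciart, Dbp, Tef and Bmal1 were 0.94, 0.52, 0.36 and 0.49 in P180 controls. In P10 controls they were 0.25, 0.07, 0.06 and 0.10. In MatSep rats they were 0.33, 0.15, 0.11 and 0.19 at P180, and 0.25, 0.09, 0.06 and 0.09 at P10.

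Dbp, Tef and Ciart, all targets of the clock's activators, were higher in MatSep vessels. Dbp, a D-box activator and a direct target of the clock, had log2 intensities of 11.76, 11.72, 11.66, 11.66 and 11.37 in MatSep rats and 9.89, 10.76, 10.78, 11.35 and 10.60 in control rats. All MatSep rats lay above all control rats, the nearest being control replicate 4. Dbp was higher by 0.96 (SE 0.16, 1.94-fold, limma adjusted p = 0.0415), and the exact 2-sided permutation test over 252 arrangements gave p = 0.00794, the smallest it can give. Its relative Tef, which binds the same box, measured 9.21, 9.01, 8.92, 8.99 and 9.05 in MatSep rats and 7.95, 8.29, 8.26, 8.93 and 8.47 in control rats. Control replicate 4 lay just inside the MatSep range and the other controls below it. Tef was higher by 0.66 (SE 0.12, limma adjusted p = 0.0450).

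Ciart, also named Chrono, a repressor that binds BMAL1, showed the largest difference among the transcripts tested. It measured 8.12, 7.98, 7.50, 8.40 and 8.08 in MatSep rats and 5.49, 5.75, 5.69, 7.76 and 6.62 in control rats, 3.37-fold higher (1.75, SE 0.30, limma adjusted p = 0.0415). The 3 controls of samples 1 to 6 were lowest, and control replicate 4 alone reached the MatSep range. Per2, a core repressor, measured 9.07, 9.06, 8.93, 9.05 and 8.83 in MatSep rats and 7.89, 7.93, 8.19, 9.13 and 8.20 in control rats. Control replicate 4 was the highest of all 10 rats and the other 4 controls were the lowest 4. Per2 differed by 0.72 (SE 0.19) and did not pass (limma adjusted p = 0.349).

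Per1, the PER gene that glucocorticoids also induce, measured 9.72, 9.57, 9.48, 9.39 and 8.52 in MatSep rats and 7.57, 8.47, 8.23, 9.63 and 8.29 in control rats. Control replicate 4 lay among the MatSep rats, and MatSep replicate 5 was only just above the other controls. The difference was 0.90 (SE 0.26, limma adjusted p = 0.410). For Per3 the difference was 0.49 (SE 0.15), for Cry2 0.26 (SE 0.07) and for Cry1 0.20 (SE 0.11), and none passed (limma adjusted p = 0.490, 0.404 and 0.944). All 6 measured PER, CRY and related repressors had a higher mean in MatSep rats. Usp2, a deubiquitinase with a strong daily rhythm, measured 9.51, 9.33, 8.80, 9.31 and 8.94 in MatSep rats and 7.74, 7.81, 8.13, 9.11 and 8.12 in control rats. Only control replicate 4 entered the MatSep range, and the difference of 0.99 (SE 0.19, 1.99-fold) had a limma adjusted p of 0.0737.

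Of the activators, Bmal1 was lower in MatSep vessels. Bmal1, the partner that CLOCK and NPAS2 share, measured 7.76, 7.90, 8.19, 7.72 and 7.96 in MatSep rats and 9.39, 8.94, 8.97, 8.04 and 8.83 in control rats. It differed by -0.93 (SE 0.16, limma adjusted p = 0.0415, exact permutation p = 0.0159), with control replicate 4 inside the MatSep range and the other controls above it. Npas2 measured 7.88, 7.82, 8.18, 7.77 and 8.16 in MatSep rats and 9.13, 8.82, 8.74, 8.04 and 8.61 in control rats, again with control replicate 4 among the MatSep rats, and differed by -0.71 (SE 0.14, limma adjusted p = 0.0831). Clock itself differed by -0.20 (SE 0.08, limma adjusted p = 0.694), and Nfil3, which represses through the D-box, by -0.34 (SE 0.11, limma adjusted p = 0.566).

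**Figure D1:**
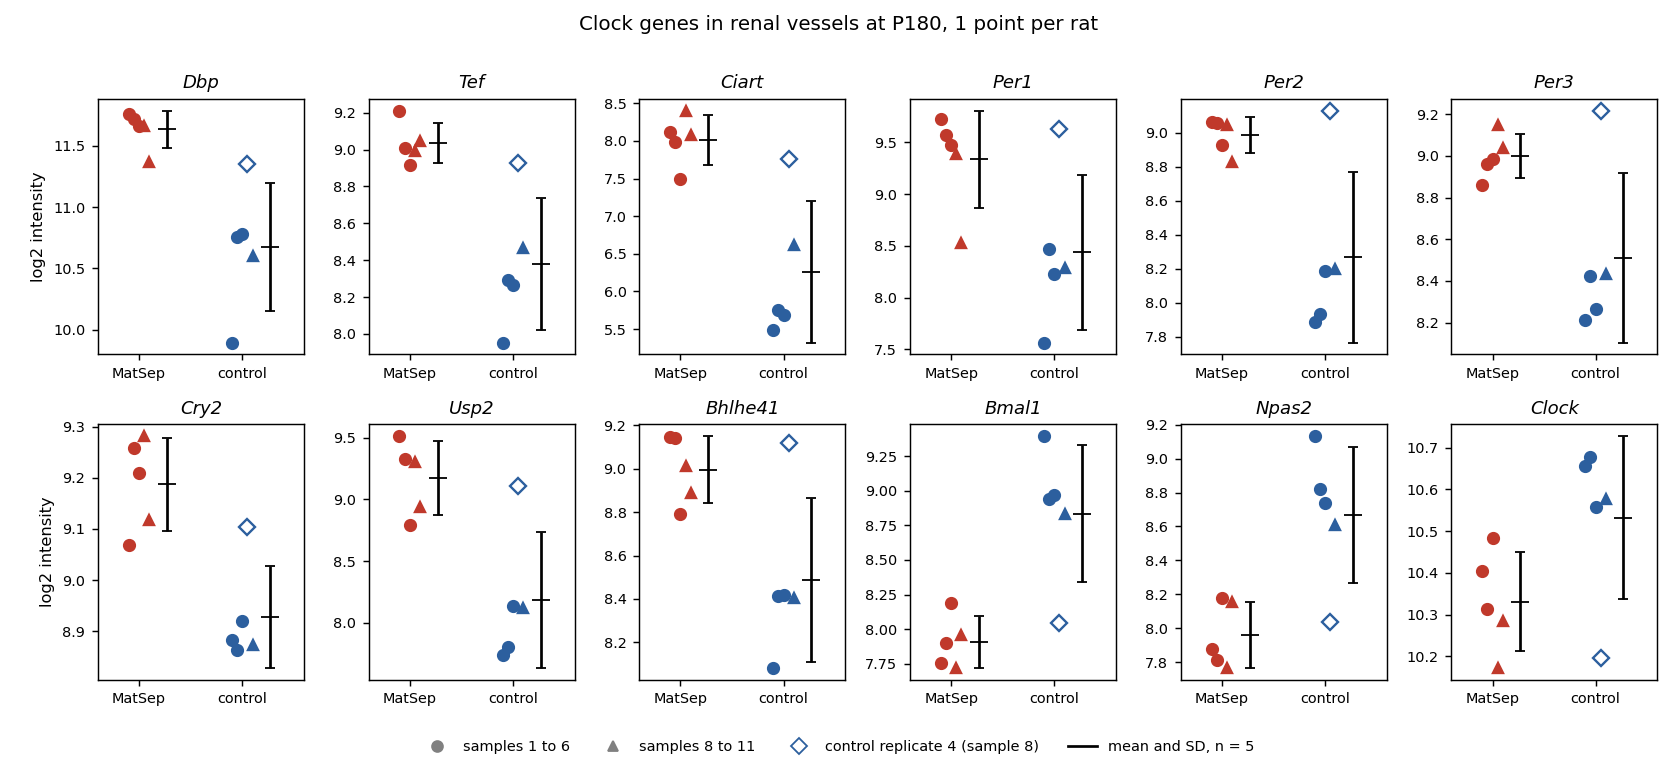
Log2 intensity (y axis) of 12 clock genes in renal vessels at P180, with MatSep rats in red on the left and control rats in blue on the right, 1 point per rat, and the mean with SD (n = 5) as a black bar. Open diamonds mark control replicate 4, which lies with the MatSep rats in most panels: its Per2 level was 9.13, against 8.83 to 9.07 in MatSep rats and 7.89 to 8.20 in the other controls.

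Of 34 listed clock genes, 26 were measured, and 16 had a higher and 10 a lower mean in MatSep rats. At an unadjusted p under 0.05, 9 were higher and 5 lower, 53.8% against 5.76% of all transcripts. The median difference was 0.13 (0.14 within the first run of sample numbers, 0.02 within the second), against -0.00 over all transcripts. Members with no unadjusted p under 0.05 included Nr1d1, the REV-ERB alpha gene (0.17, SE 0.11), Rora (0.02, SE 0.06), Rorb (0.09, SE 0.08) and the kinases Csnk1d (-0.02, SE 0.05) and Csnk1e (-0.05, SE 0.07). Of the DEC repressors, Bhlhe41 differed by 0.51 (SE 0.15) and Bhlhe40 by 0.18 (SE 0.09). Bmal2, Nr1d2, Hlf, Fbxl21, Tipin and Sirt1 were among those that had no transcript with 1 symbol of their own and are not in these counts.

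Control replicate 4 lay apart from the other controls in these genes. Among the 14 clock genes with an unadjusted p under 0.05, control replicate 4 (sample number 8) was nearer to the MatSep mean than to the mean of the other controls in 13, and within the MatSep range in 10. No other control was nearer to the MatSep mean in any of the 14. It was the control furthest toward MatSep in 92.9% of the 14, and in 33.9% of all 1066 transcripts at that p. The array was singled out after its values were seen, and where it is the control nearest to MatSep, leaving it out widens the difference by construction. Without it, 19 transcripts were higher and 19 lower, including the 6 that passed with all arrays. Clock genes made up 10 of these 38: Ciart differed by 2.13, Usp2 by 1.23, Per1 by 1.197, Dbp by 1.13, Per2 by 0.93, Tef by 0.79, Per3 and Bhlhe41 by 0.66, Bmal1 by -1.13 and Npas2 by -0.87 (limma adjusted p from 2.38e-05 to 0.0130). Outside the clock, those of the 38 with the largest differences were Slc16a1, a lactate transporter (-1.35), Dtx4 (-1.03) and Cts7l2 (1.03), Slc16a1 and Cts7l2 being named after their values were seen. No collection time is given for any rat, so neither the group difference nor the levels of control replicate 4 can be set against the time of day.

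For the 4 clock genes that passed, the 2 runs gave the same direction. Dbp differed by 1.24 in samples 1 to 6 and 0.54 in samples 8 to 11, Ciart by 2.22 and 1.05, Tef by 0.88 and 0.32, and Bmal1 by -1.15 and -0.60. For Per1, the difference within samples 8 to 11 was -0.00. The test of the difference between runs passed for none of these (limma adjusted p from 0.372 to 0.589), and for no transcript tested, with 1589 (8.58%) at an unadjusted p under 0.05. With the runs as a block, 7 transcripts were higher (0.0378%) and 9 lower (0.0486%), among them the same 6, and also Usp2 (limma adjusted p = 0.0434) and Npas2 (limma adjusted p = 0.0434). In both runs the control rats carry the lower sample numbers, so group and position in the run cannot be told apart.

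**Figure D2:**
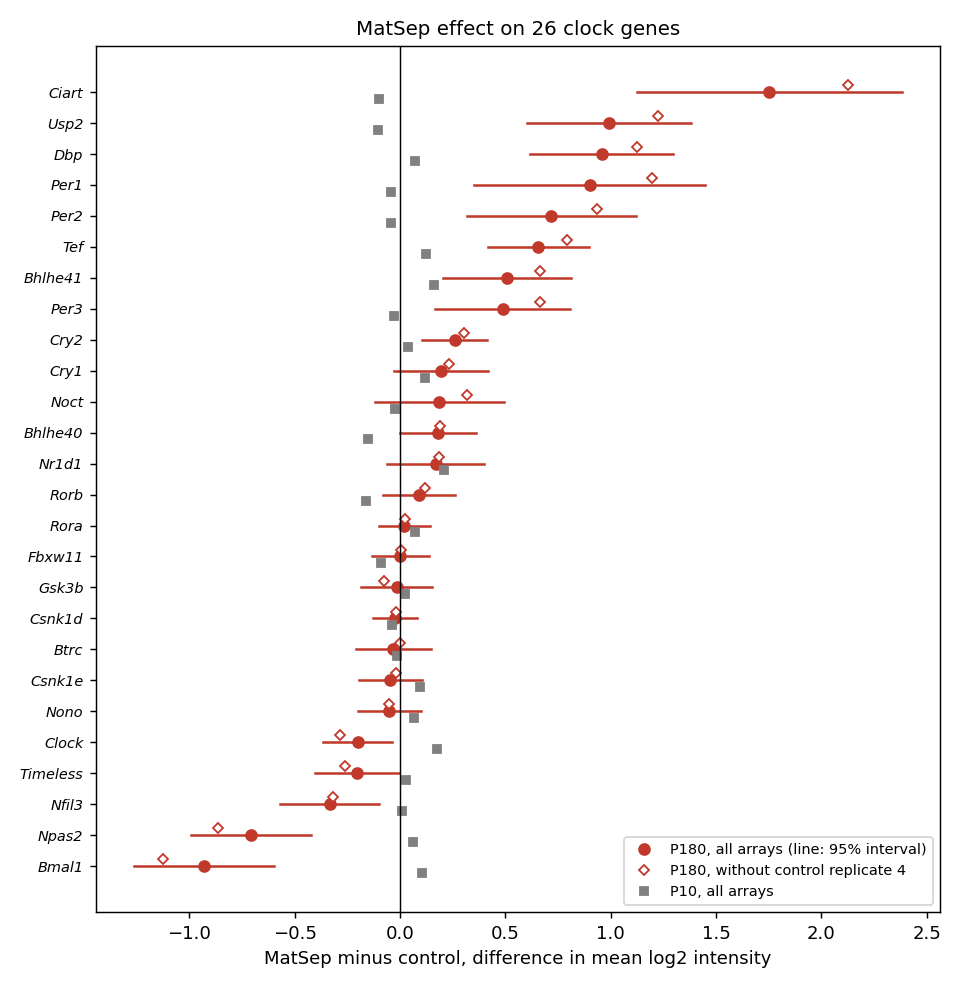
Difference in mean log2 intensity, MatSep minus control (x axis), for 26 clock genes (y axis), at P180 with all arrays (filled circles, line for the 95% interval), at P180 without control replicate 4 (open diamonds) and at P10 (grey squares). The P180 effects run from -0.93 (Bmal1) to 1.75 (Ciart), and reach -1.13 and 2.13 for the same genes without control replicate 4, while the P10 values lie between -0.16 and 0.21.

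At P10, the same genes differed little between MatSep and control vessels. The P10 differences were 0.07 (SE 0.16) for Dbp, -0.10 (SE 0.30) for Ciart, 0.12 (SE 0.12) for Tef, -0.04 (SE 0.19) for Per2 and 0.11 (SE 0.16) for Bmal1. The difference between the ages itself did not pass (limma adjusted p = 0.196, 0.158, 0.299, 0.378 and 0.140), nor for any transcript, with 1674 (9.04%) at an unadjusted p under 0.05. Without control replicate 4 it passed for 42 transcripts, among them Ciart (2.23, limma adjusted p = 0.00147), Usp2 (1.33, limma adjusted p = 0.00147) and Bmal1 (-1.23, limma adjusted p = 0.00142). That array was singled out after its values were seen, and leaving it out widens the differences of these genes by construction. The count also moved with single P10 arrays, to 52 without control replicate 2 and 12 without MatSep replicate 1 of P10.

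Of 29 measured output genes, 22 had a higher mean in MatSep rats, and 8 were higher and 2 lower at an unadjusted p under 0.05, 34.5% against 5.76% of all transcripts; none passed after adjustment. Wee1, a mitotic kinase under E-box control, differed by 0.40 (SE 0.10), Tspan4, a tetraspanin, by 0.36 (SE 0.08), and Herpud1, of the endoplasmic reticulum, by 0.30 (SE 0.08). Aqp4, a water channel of the collecting duct, was singled out after its values were seen: it averaged 7.31 ± 0.23 in MatSep and 6.37 ± 0.23 in control rats (SD, n = 5 each) and the groups did not overlap, but its limma adjusted p was 0.518 with the spread of all 20 arrays.

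Outside the clock, RT1-CE13 and Nav3 were lower in MatSep vessels. RT1-CE13, an MHC class I gene, measured 4.50, 5.09, 5.00, 4.82 and 5.20 in MatSep rats and 6.30, 5.72, 5.78, 5.88 and 5.52 in control rats, without overlap. It differed by -0.92 (SE 0.14, limma adjusted p = 0.0266), by -1.07 in the first run and -0.70 in the second, and control replicate 4 lay with the other controls. Its mean over all 20 arrays was 4.87, near the floor of the array. Its probes belong to a multigene family and may share signal with its relatives, and of 39 measured RT1 genes no other passed (15 higher, 24 lower, median -0.02). Nav3, a microtubule-binding protein, measured 6.74, 6.64, 7.01, 6.98 and 6.47 in MatSep rats and 7.96, 7.64, 7.75, 7.26 and 7.24 in control rats. The groups did not overlap, and Nav3 differed by -0.80 (SE 0.13, limma adjusted p = 0.0415).

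The next transcripts in order of p held enzymes and a steroid carrier. Cyp1a1, an oxidase induced through the aryl hydrocarbon receptor, measured 5.89, 5.39, 5.22, 5.90 and 5.69 in MatSep rats and 4.98, 4.77, 4.78, 5.31 and 4.97 in control rats. The difference of 0.66 (SE 0.12) had a limma adjusted p of 0.0508, or 0.0150 when the fit held the runs as a block, and was 0.66 in each run. Of the other 6 measured genes of that receptor's list, none had an unadjusted p under 0.05, Cyp1b1 among them (-0.09, SE 0.11). Serpina6, the corticosteroid-binding globulin, measured 4.47, 4.67, 4.61, 4.47 and 4.60 in MatSep rats and 4.87, 4.98, 5.20, 4.97 and 4.93 in control rats, without overlap (-0.42, SE 0.08, limma adjusted p = 0.0737). These Serpina6 levels were also near the floor, where 3519 of the 18511 transcripts had a mean log2 intensity under 5.

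Further higher transcripts, none of which passed, were Nat8f5 (0.62, SE 0.12), Epm2a, the glycogen phosphatase laforin (0.65, SE 0.14), Gstp3 (0.41, SE 0.09), Chial1 (0.41, SE 0.09), Prl8a3 (0.42, SE 0.09), LOC100363236 (0.31), Slc4a1, the anion exchanger of intercalated and red cells (0.45, SE 0.10), Gpr146 (0.40, SE 0.10) and Or2ag18 (0.31). Further lower ones were Olr1, a scavenger receptor for oxidized lipoprotein (-0.70, SE 0.14), Dtx4, a Notch pathway ligase (-0.86, SE 0.18), Abca9 (-0.56, SE 0.12), Ly49s8 (-0.45), Sectm1a (-0.39), Naip5 (-0.49), Mocos (-0.36), Chst15, a sulfotransferase of chondroitin (-0.41, SE 0.09), Adamts9, a metalloprotease (-0.38) and Alx1 (-0.51). Limma adjusted p-values ran from 0.108 to 0.217. Gstp3, Prl8a3, Or2ag18, Ly49s8, Sectm1a and Naip5 belong to gene families whose members may share signal. Prl8a3 and Or2ag18 were also near the floor, with means over all 20 arrays of 4.47 and 4.53. Nat8f5, Dtx4, Abca9 and Chst15 passed with the runs as a block (limma adjusted p = 0.0434 for each).

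**Figure D3:**
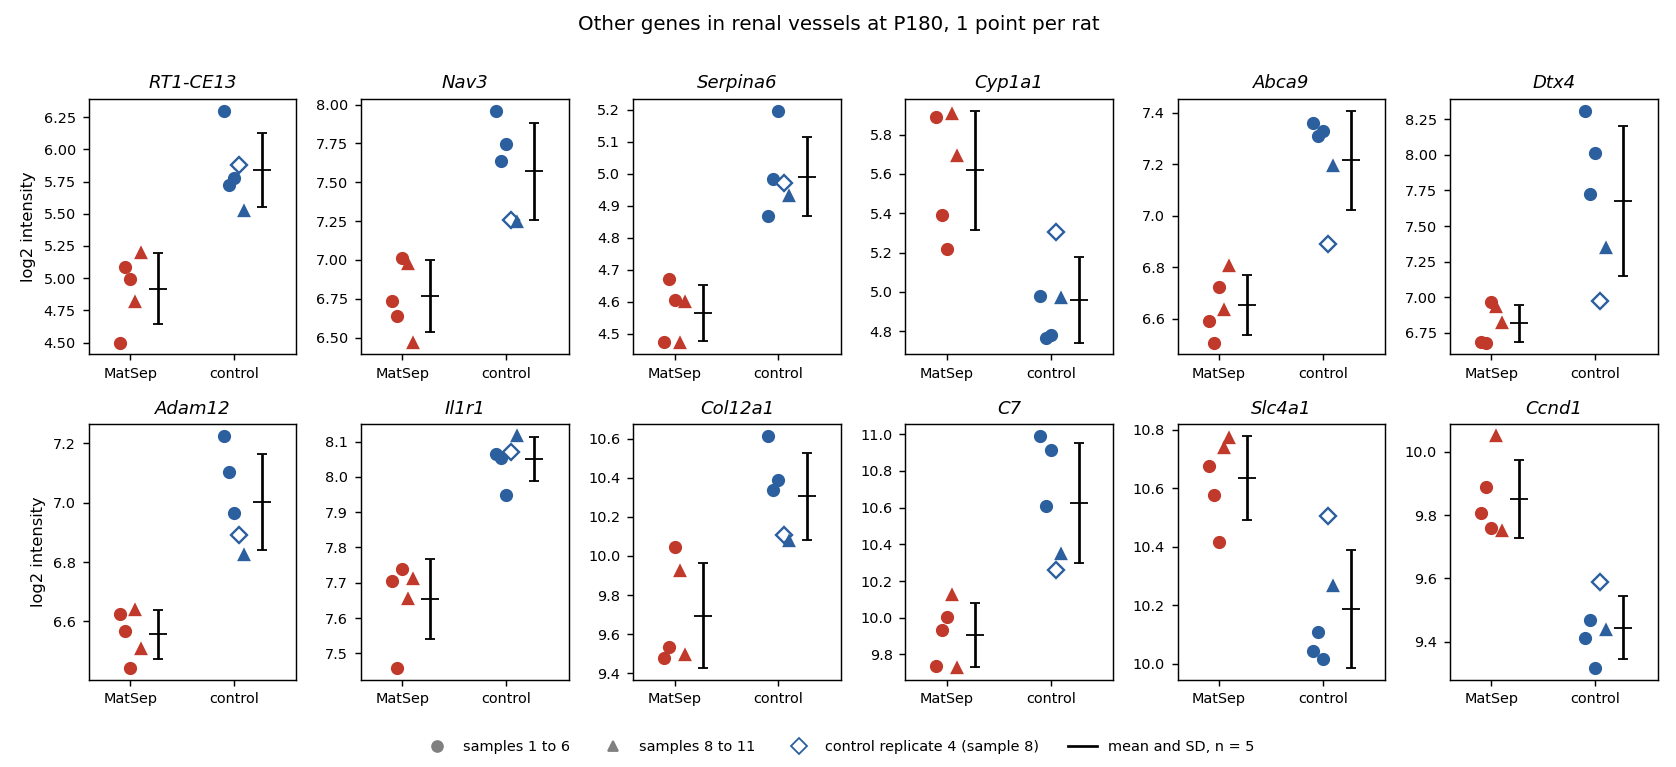
Log2 intensity (y axis) of 12 genes outside the clock in renal vessels at P180, MatSep rats in red on the left and control rats in blue on the right, 1 point per rat, mean and SD (n = 5) in black. RT1-CE13 and Nav3 passed the test, and their groups do not overlap: MatSep rats had 4.50 to 5.20 and 6.47 to 7.01, and control rats 5.52 to 6.30 and 7.24 to 7.96.

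Matrix and fibroblast genes leaned lower in MatSep vessels, and none passed singly. Of 28 measured collagens and elastic fibre genes, 26 had a lower mean and 10 an unadjusted p under 0.05, all 10 lower, against 3.11% of all transcripts in that direction. The median was -0.30, with -0.43 in the first run and -0.11 in the second, and ranged between -0.41 and -0.23 when each P180 array was left out in turn. Col12a1, a fibril-associated collagen, measured 9.48, 9.54, 10.04, 9.92 and 9.49 in MatSep rats and 10.61, 10.34, 10.39, 10.11 and 10.08 in control rats. The groups did not overlap (-0.61, SE 0.14, limma adjusted p = 0.202). Loxl1, which crosslinks elastin, differed by -0.65 (SE 0.20), Col4a1 by -0.34 (SE 0.12) and Col1a2 by -0.52 (SE 0.19). Lox (-0.52, SE 0.26) and Fbn1, of microfibrils (-0.40, SE 0.17), were singled out.

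Of 14 fibroblast markers, 5 of which are also in the matrix list, 12 had a lower mean and 4 an unadjusted p under 0.05, all lower (28.6%, against 3.11% of all transcripts in that direction). The median was -0.24, with -0.34 in the first run and -0.10 in the second, and was -0.15 without control replicate 3 and -0.35 without control replicate 4. C7, a complement component made by stromal cells, measured 9.74, 9.93, 10.00, 10.12 and 9.73 in MatSep rats and 10.99, 10.61, 10.91, 10.26 and 10.35 in control rats, without overlap (-0.72, SE 0.21, limma adjusted p = 0.410). Pdgfra differed by -0.47 (SE 0.13). The mean level of the fibroblast markers was 7.98 to 8.45 in MatSep rats and 8.04 to 8.59 in control rats; the medians were 8.07 in MatSep and 8.44 in control rats. In these bulk samples, fewer fibroblasts and less RNA per fibroblast cannot be told apart, and the part of either in the matrix genes was not tested. At P10 the collagen list ran the other way, with a median of 0.42.

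Inflammatory genes also leaned lower, and none passed singly with all arrays and no block. The study lists 45 measured inflammatory genes as Up, mostly for higher levels in MatSep neonates, and their median at P10 was 0.34 here. In the study's own adult values most of them were lower. The list came from these same samples and is therefore no independent evidence. At P180, 38 of the 45 had a lower mean and 13 an unadjusted p under 0.05, all lower (28.9%, against 3.11% of all transcripts in that direction), with a median of -0.12. Il1r1, the receptor of interleukin 1, measured 7.71, 7.46, 7.74, 7.65 and 7.71 in MatSep rats and 8.06, 8.05, 7.95, 8.07 and 8.12 in control rats, without overlap (-0.40, SE 0.09, limma adjusted p = 0.199). Dpep1 differed by -0.61 (SE 0.16) and Tnfsf13b, the B cell factor BAFF, by -0.49 (SE 0.13, limma adjusted p = 0.306, or 0.0434 when the fit held the runs as a block). Of 33 chemokines and receptors, 23 had a lower mean and 7 an unadjusted p under 0.05, all lower (21.2%, against the same 3.11%), Ccl2 (-0.59, SE 0.15), Cx3cl1 (-0.56, SE 0.18) and Cxcl12 (-0.33, SE 0.11) among them. Their median was -0.12, and -0.01 within samples 8 to 11. In samples 1 to 6 and 8 to 11, Ccl2 differed by -0.82 and -0.26, Cx3cl1 by -0.94 and 0.01, and Cxcl12 by -0.55 and -0.01. Of 25 cytokines and co-stimulators, 20 had a lower mean and 6 an unadjusted p under 0.05, all lower (against the same 3.11%), Il1r1 and Il1b (-0.41, SE 0.10) with the smallest. This list shares members with the study's inflammatory list, Il1r1 and Tnfsf13b among them, so the counts are not independent.

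Of 19 macrophage and monocyte markers, 15 had a lower mean and 3 were lower and 1 higher at an unadjusted p under 0.05 (21.1%, against 5.76% of all transcripts, median -0.07), with mean levels of 8.02 to 8.21 in MatSep and 8.13 to 8.28 in control rats. For T cells and NK cells the median over 14 markers was 0.00 and 1 was lower at that p (7.14%), Cd8b (-0.36, SE 0.10). Interferon-stimulated genes had a median of -0.04 over 16 and none at that p. The part of these cells in the chemokine and cytokine values was not tested.

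Collecting duct markers leaned higher, and none passed. All 10 collecting duct genes had a higher mean in MatSep rats (median 0.29, and 0.21 and 0.33 in the 2 runs), and 2 had an unadjusted p under 0.05 (20.0%, against 2.65% of all transcripts in that direction), Slc4a1 and Scnn1g, a sodium channel subunit (0.36, SE 0.15). Slc4a1 measured 10.68, 10.57, 10.41, 10.74 and 10.77 in MatSep rats and 10.04, 10.11, 10.02, 10.50 and 10.26 in control rats, where only control replicate 4 entered the MatSep range. The 10 proximal tubule genes had a median of 0.04, and of 8 genes of the loop of Henle and distal tubule 5 had a lower mean (median -0.01), with none of either at that p.

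The renin-angiotensin system, the subject of the study, did not separate adult MatSep from control vessels. Of 26 measured genes, 12 had a higher and 14 a lower mean, none had an unadjusted p under 0.05, and the differences ran from -0.23 to 0.30 with a median of -0.005. Agt, the angiotensin precursor, differed by -0.23 (SE 0.16). Endothelial markers (16, median 0.06) and smooth muscle markers (11, median -0.07) also had none at that p, and neither had 19 genes of oxidative phosphorylation (median -0.01). Of the endothelial markers, 10 had a higher and 6 a lower mean, and of the smooth muscle markers, 1 had a higher and 10 a lower mean. Pericyte and mesangial markers (9, median -0.10) had 7 with a lower mean and none at that p. Mean smooth muscle level was 9.95 to 10.92 in MatSep and 10.06 to 10.51 in control rats. Pecam1, Kdr, Eng and Ptprb, which define endothelium, had no transcript with 1 symbol and were not analysed here. By RT-qPCR, the paper reports a significant reduction of PECAM-1 in MatSep vessels at both ages, so the endothelial values here leave out that marker.

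**Figure D4:**
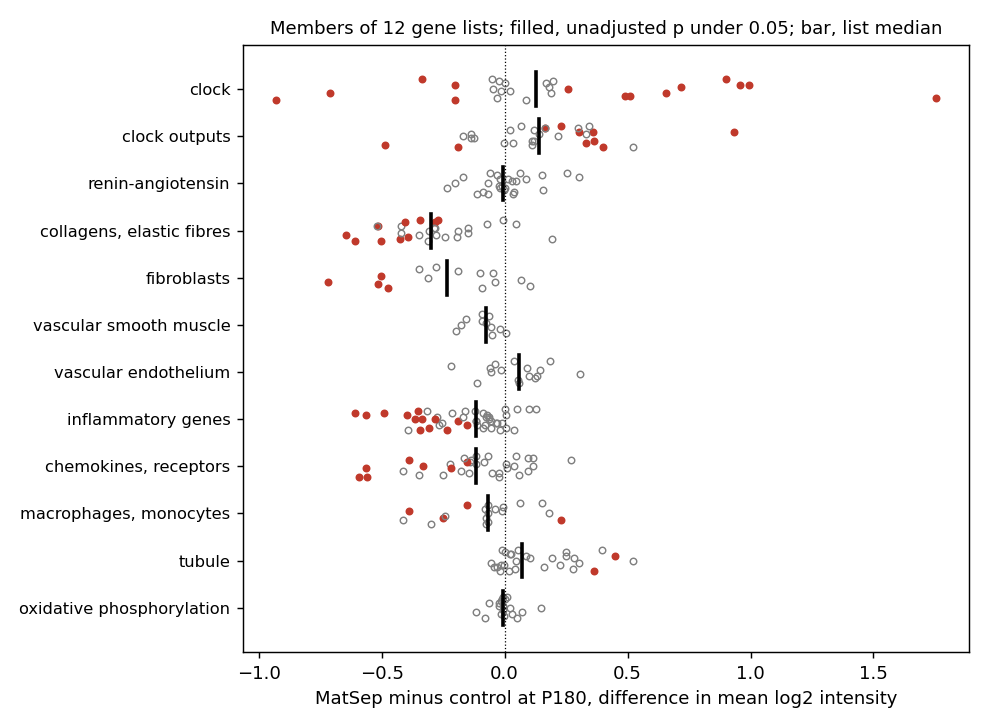
Difference in mean log2 intensity at P180, MatSep minus control (x axis), of each measured member of 12 gene lists (y axis), with filled red points for an unadjusted p under 0.05 and a black bar for the list median. Clock genes spread widely to both sides (-0.93 to 1.75), collagens and fibroblast markers lie mostly below 0, and renin-angiotensin genes lie within -0.23 to 0.30.

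Ccnd1, the G1 cyclin, was the member of the cell cycle list with the smallest p. It measured 9.81, 9.89, 9.76, 10.05 and 9.75 in MatSep rats and 9.41, 9.47, 9.32, 9.59 and 9.44 in control rats, without overlap, a difference of 0.41 (SE 0.10, limma adjusted p = 0.220, or 0.0434 when the fit held the runs as a block). Mki67, a marker of dividing cells, differed by -0.27 (SE 0.08) and Mcm2, of the replication helicase, by 0.26 (SE 0.10), and the 24 measured cell cycle genes split into 13 with a higher and 11 with a lower mean.

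Among the other lists, 8 of 9 adipocyte markers had a lower mean in MatSep rats (median -0.32, but -0.11 without control replicate 3 and -0.17 without control replicate 5), with none at an unadjusted p under 0.05, against 5.76% of all transcripts. Of 7 lymphatic endothelial markers 6 had a lower mean and 3 were lower at that p (42.9%, against 3.11% of all transcripts in that direction). Their median was -0.12, with -0.28 in the first run and -0.05 in the second. The study lists 34 angiogenic genes from these samples as Up, mostly for higher levels in MatSep neonates. At P180, 24 of the 34 had a lower mean and 4 were lower at that p (11.8%, against the same 3.11%, median -0.12, and 0.33 at P10). Of 22 immediate early genes 19 had a lower mean and 1 was lower at that p (4.55%, median -0.08). Of 17 genes of glucocorticoid response and transport, 3 were higher and 2 lower at that p (29.4%, against 5.76% of all transcripts, median 0.05).

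Of the downstream genes that the study lists for adult MatSep vessels, 17 listed as higher and 23 listed as lower had a transcript of their own symbol. With the deposited values, 16 of the 17 had a higher and all 23 a lower mean, and 14 and 19 had an unadjusted p under 0.05, but these genes were chosen on the same samples. After adjustment over all transcripts, 2 of the 17 (Dbp and Tef) and 2 of the 23 (Bmal1 and Nav3) passed.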

How the data were processed

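Total RNA of renal vessels was hybridized to 20 RaGene2.0_st arrays, and the 10 arrays of P180 were compared here. The authors normalized the scans by RMA and deposited linear intensity values per transcript, of which log2 was taken; versions and the background setting of their software are not given in the sources used here. A second deposited copy of the linear values differed by at most 0.005 intensity units, and its log2 was used as an alternative. The authors also deposited comparison tables with p-values, fold changes and group means, which were not used. RMA draws all arrays to one distribution, so a shift of most transcripts in one direction would not be seen.

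Transcripts with 1 gene symbol were kept (18511; 575 had several and 17599 none). limma 3.58.1 in R 4.3.3 fitted 4 group means to all 20 arrays, which share one estimate of the spread, and p-values were adjusted by Benjamini-Hochberg over all 18511. Where a gene had several transcripts, the lists took 1. Single genes were also compared by an exact 2-sided permutation test over 252 arrangements. Genes named in the text were those that passed, the 15 transcripts with the smallest p in each direction, the clock list, up to 3 members with the smallest p of each other list, and the study's downstream genes. Others, among them Myh11, Umod and Cyp1b1, were singled out. The members and lists were chosen with earlier results of these data known, and lists are described by counts and medians without a test. The procedure was run on simulated data of the same size for this comparison, with 50 changes each of 0.5, 1, 1.5 and 2 on the log2 scale. Of these, 40 of 50 changes of 0.5 and all 50 of 1 were called, with 8 calls among unchanged transcripts. Noise was drawn independently for each array, without runs. So many planted changes ease the adjusted threshold, whereas 6 transcripts passed in the real data. The simulation therefore does not give the share of real changes of these sizes that would be found. Alternatives covered the arrays fitted, the runs, array weights, variance prior, normalization, dim transcripts, annotation and threshold. Promoters were searched with Python 3.11, and plots were drawn with matplotlib 3.10.9.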

Additional observations from a re-analysis of the deposited data

Results flagged for a closer look

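Single rats that stood far from the other 4 of their group (Dixon's ratio above 0.71) were found in 26 of 334 groups of 5 (7.78%), where chance gives about 1 in 20. Of the 26, 9 were in clock genes, and 9 were control replicate 4, 5 of these in clock genes.

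In the clock list, MatSep rats stood apart at 11.369 in Dbp (the others 11.659 to 11.759), 8.524 in Per1 (9.389 to 9.724) and 9.488 in Fbxw11 (9.246 to 9.314). Control rats stood apart at 9.112 in Usp2 (7.736 to 8.135), 10.195 in Clock (10.557 to 10.677), 9.131 in Per2 (7.886 to 8.2), 9.218 in Per3 (8.212 to 8.435), 9.103 in Cry2 (8.862 to 8.919) and 9.152 in Fbxw11 (9.337 to 9.41).

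Outside the clock, MatSep rats stood apart at 8.53 in Tspan4, 10.355 in Klf9, 7.574 in Robo4, 12.06 in Podxl, 5.655 in S100b, 7.01 in Mki67, 10.781 in Ppargc1a and 6.418 in Dll1. Control rats stood apart at 5.519 in Gstp3, 7.425 in Egfr, 5.554 in Ctsg, 7.958 in Cldn5, 7.882 in Myocd, 9.596 in Nphs1, 5.8 in S100a9, 7.371 in Rhag and 4.744 in RT1-CE3.

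Outside the transcripts with 1 symbol, 2 passed when all transcripts of the table were tested by limma. Transcript 17791824, which has no symbol, measured 4.51, 5.07, 5.00, 4.59 and 4.92 in MatSep rats and 8.71, 6.79, 7.10, 6.35 and 6.45 in control rats, without overlap, a difference of -2.26 (SE 0.31, adjusted p = 0.0213). Transcript 17659980, annotated to 2 records that both carry the name Hlf, measured 6.47, 6.77, 6.39, 6.58 and 6.65 in MatSep rats and 5.36, 5.49, 5.75, 6.22 and 5.48 in control rats, a difference of 0.91 (SE 0.14, adjusted p = 0.0317). Hlf is the third factor of the Dbp and Tef family, and as for these genes control replicate 4 was the control nearest to the MatSep rats.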

How the results depend on the processing

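With all arrays, 3 transcripts were higher and 3 lower by limma. No call turned its direction in any alternative, but the counts moved. They were 0 and 0 with only the 10 arrays of P180 (unadjusted 411 and 525), 7 and 9 with runs as a fixed block, 6 and 5 with runs as a random block, 15 and 36 within samples 1 to 6, 0 and 0 within samples 8 to 11 (unadjusted 586 and 498), 8 and 9 with array weights, 5 and 4 with an intensity trend and robust prior, 0 and 0 without moderation (unadjusted 504 and 569), and 1 and 2 with all transcripts of the table, where RT1-CE13 was the one of the 6 that still passed and the other 2 calls have no single symbol. By threshold they were 491 and 575 at an unadjusted p under 0.05, and 208 and 312 with over 1.2-fold added. The cause of these shifts was not tested.

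Same-numbered MatSep and control rats showed r = -0.149, 0.062, -0.211, 0.198 and 0.214 in their deviations from the group means. Rats of different number showed r from -0.27 to 0.283. These values gave no sign of pairing but cannot exclude it, since litters are not given. With a replicate block 3 were higher and 0 lower (unadjusted 625 and 768).

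Leaving out each array in turn gave 0 to 19 higher and 0 to 19 lower. None was called without control replicate 2 or 3, MatSep replicate 1, or MatSep replicate 4 of P10 (unadjusted 414 to 471 higher and 478 to 558 lower). Dropping control replicate 4 left 19 higher and 19 lower, dropping MatSep replicate 3 left 6 and 4, and dropping MatSep replicate 4 left 2 and 2; the counts were 1 and 1 without control replicate 1 or MatSep replicate 5, 0 and 1 without MatSep replicate 2 or any other P10 array, and 0 and 2 without control replicate 5. The difference between the ages passed for 0 transcripts with all arrays, and for 52, 12 and 1 without control replicate 2, MatSep replicate 1 and control replicate 3 of P10. With 5 rats a group, the 6 calls thus rest on single arrays. RT1-CE13 kept its call in 28 of 36 alternatives, Nav3 in 16 of 37 and the clock genes in 13 to 15 of 37. No higher call was left without any P10 array, so Ciart, Dbp and Tef failed in each of those fits. The clock genes kept their direction whichever array was left out: Dbp at 0.76 to 1.13, Ciart at 1.56 to 2.13, Tef at 0.55 to 0.79 and Bmal1 at -1.13 to -0.79.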
